A study of Mus musculus with 24 samples.

Results

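Resident macrophages of the artery wall live in the adventitia, the outer connective-tissue layer, and are set down there before or soon after birth, with slow upkeep afterwards. They are known for a scavenger and clearance programme: the hyaluronan receptor Lyve1, the folate receptor Folr2, the phosphatidylserine receptor Timd4, the hemoglobin scavenger Cd163 and the mannose receptor Mrc1 are the genes most used to tell them from macrophages that arrive as monocytes. The 10 genes followed here through the aortas of mice with and without Klotho were those 5, the clotting-factor subunit F13a1, the carbonyl reductase Cbr2, the chemokine Pf4 (platelet factor 4), the receptor kinase Mertk, which takes up apoptotic cells, and Csf1r, the growth-factor receptor on which macrophages depend. They were picked by name from a table of 32561 genes, and all 10 were found and tested. They were set against Cd68, a lysosomal membrane protein, and Mpeg1, a pore-forming protein, which macrophages of any origin express.

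The study measured polyA RNA of whole aorta in 24 mice aged 44 to 53 days on the 129S1/SvlmJ background, in 6 groups of 4. Klotho is a kidney-derived co-receptor for a phosphate-regulating hormone, and mice homozygous for the recessive Kl allele (Kl/Kl) were labelled as having renal disease. There were Bmp2+/+ males, Bmp2+/+ females and Bmp2 ∆UCS/∆UCS males, each as Kl/Kl and as control. Controls were Klotho+/Kl, except for Bmp2+/+ male control replicate 1, which was Klotho+/+. The design has no ∆UCS females. The Kl allele acts in the whole animal, so kidney failure and loss of Klotho in the vessel cannot be told apart.

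Estimated depth was 20593558 to 61109636 reads per library, and genes of the mitochondrial genome held 40.2% to 61.2% of all TPM (a normalised transcript abundance that sums to the same total in each library). Smooth muscle actin Acta2 was at 24.3 to 212 TPM and smooth muscle myosin Myh11 at 1.82 to 18.3 TPM. In 2 libraries, Bmp2+/+ male Kl/Kl replicate 1 and female Kl/Kl replicate 2, sex-specific transcripts went against the labelled sex. Main values leave out these 2 (22 libraries), and the comparisons of the members and the counts of the lists are also given with all 24 as labelled. Each library came from its own mouse per the labels, and no library repeated the values of another (0 identical pairs).

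The members differed widely in size, and the deposited TPM divides by a gene's whole genomic span, so a level can be compared between libraries but not between genes. On mm39, Lyve1 (ENSMUSG00000030787) lies on chromosome 7 at 110449814 to 110462446, minus strand, and Folr2 (ENSMUSG00000032725) on chromosome 7 at 101489195 to 101506401, minus strand. Mrc1 (ENSMUSG00000026712) spans chromosome 2 from 14234203 to 14336868, plus strand, and F13a1 (ENSMUSG00000039109) chromosome 13 from 37051152 to 37234220, minus strand. Timd4 (ENSMUSG00000055546) lies on chromosome 11 at 46701627 to 46735159, plus strand, and Cbr2 (ENSMUSG00000025150) on the same chromosome at 120620315 to 120622940, minus strand. Cd163 (ENSMUSG00000008845) is on chromosome 6 at 124281615 to 124307486, plus strand, and Mertk (ENSMUSG00000014361) on chromosome 2 at 128540876 to 128644814, plus strand. Pf4 (ENSMUSG00000029373) takes 949 bp of chromosome 5, from 90920294 to 90921242, plus strand. Timd4 had 64 to 1162 estimated reads per library, Pf4 84 to 1236, Folr2 113 to 734, and Cbr2, the deepest, 4310 to 68496. Genes on the opposite strand overlap 2784 bp of Folr2, 2435 bp of Mertk and 873 bp of Csf1r, 2 such genes overlap F13a1, and an unnamed gene on the same strand overlaps 124 bp of Mertk. Whether strand was used in counting is not given in the sources used here.

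In the average over the 3 strata, 8 of the 10 members were higher in Kl/Kl than in control aorta, against 15.0% of all 21248 tested genes called higher (limma on log2(TPM + 0.1), Benjamini-Hochberg adjusted p at most 0.05). Their median log2 change was 0.93, and the median of all genes was 0.28. Pf4 rose most, by 1.42 ± 0.22 (SE, adjusted p = 0.000432, limma), followed by Csf1r at 1.35 ± 0.28 (adjusted p = 0.00467, limma). Cd68 and Mpeg1 rose by 3.79 ± 0.24 and 3.89 ± 0.34, more than any member. In the average, 78.9% of all genes changed less than Timd4, the lowest member, and 98.0% less than Pf4.

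**Figure D1:**
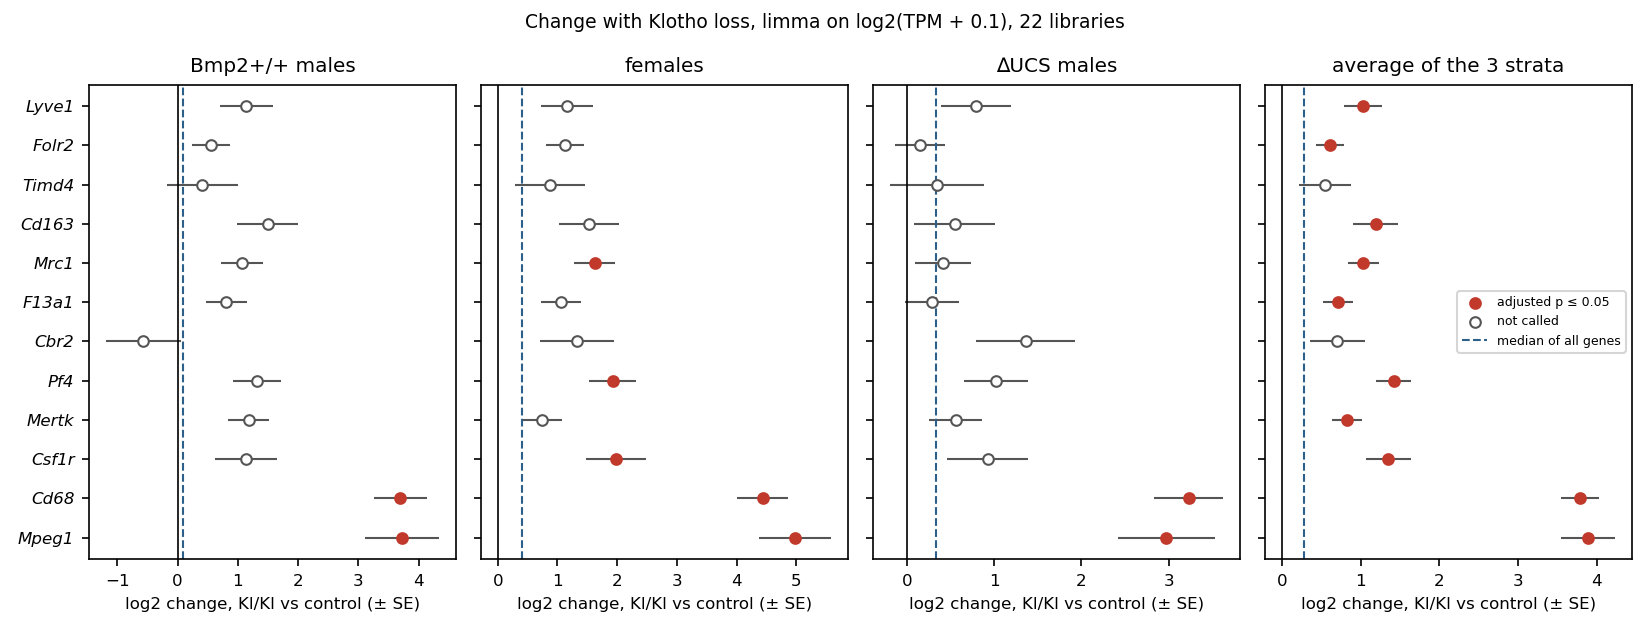
Log2 change of each gene in Kl/Kl against control aorta (horizontal axis, ± SE, limma on log2(TPM + 0.1), 22 libraries) in the 3 strata and in their average. Filled points passed an adjusted p of 0.05 and the dashed line is the median of all genes. Members lie below Cd68 and Mpeg1 in each panel.

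The pan-macrophage pair sets the scale. Cd68 was at 5.73, 1.58, 5.98 and 1.57 TPM in Bmp2+/+ male controls and 68.2, 23.7 and 57.4 TPM in the 3 kept Kl/Kl males. Female controls were at 1.75 to 2.61 TPM and kept female Kl/Kl at 55.7, 51.3 and 38.9 TPM. The groups were far apart in both. Mpeg1 was at 1.56 to 12.2 TPM in Bmp2+/+ male controls and 57.6 to 71.9 TPM in kept Kl/Kl males. In ∆UCS males it was at 1.59, 4.28, 1.96 and 7.93 TPM in controls and 47.5, 36.5, 39.2 and 6.76 TPM in Kl/Kl, so that Kl/Kl replicate 4 lay within the controls. That library was also the lowest ∆UCS Kl/Kl for Cd68, Mrc1, Cd163, F13a1, Mertk, Csf1r, Lyve1 and Cbr2, and the highest for Pf4 and Folr2.

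The scavenger receptors Mrc1 and Cd163 were both higher in the average, as was F13a1. Mrc1 was at 0.348, 0.190, 0.186 and 0.158 TPM in Bmp2+/+ male controls and at 1.03, 0.438 and 0.442 TPM in the 3 kept Kl/Kl males. In females it was at 0.319, 0.277, 0.211 and 0.189 TPM in controls and 0.927, 1.53 and 0.618 TPM in kept Kl/Kl animals. In ∆UCS males it was at 0.236, 0.206, 0.410 and 0.440 TPM in controls and 0.393, 0.576, 0.636 and 0.264 TPM in Kl/Kl. The groups did not overlap in the Bmp2+/+ strata and overlapped in ∆UCS males. The 2 libraries against their labelled sex were at 0.171 TPM (male) and 0.323 TPM (female), at or near the level of the controls.

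The Mrc1 change was 1.62 ± 0.34 in females (adjusted p = 0.0137, limma), 1.07 ± 0.35 in Bmp2+/+ males (adjusted p = 0.270) and 0.41 ± 0.32 in ∆UCS males (adjusted p = 0.529). The average was 1.04 ± 0.20 (adjusted p = 0.00223). Cd163 averaged 1.19 ± 0.28 (adjusted p = 0.00889) and its control means of 0.621 ± 0.341, 0.883 ± 0.199 and 0.883 ± 0.268 TPM (SD, n = 4 each; Bmp2+/+ males, females, ∆UCS males) stood beside Kl/Kl means of 1.94 ± 0.790 (SD, n = 3), 3.32 ± 2.68 (SD, n = 3) and 1.45 ± 0.769 (SD, n = 4). The female mean rested on replicate 3, at 6.37 TPM, while replicates 1 and 4 were at 2.25 and 1.34 TPM. In ∆UCS males the Cd163 values were 0.791, 0.570, 0.972 and 1.20 TPM in controls and 1.04, 1.82, 2.33 and 0.612 TPM in Kl/Kl, which overlapped.

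F13a1, which encodes the A subunit of coagulation factor XIII, was at 0.424, 0.180, 0.161 and 0.157 TPM in Bmp2+/+ male controls and 0.923, 0.342 and 0.345 TPM in kept Kl/Kl males. The Klotho+/+ animal, the 0.424 TPM, was above 2 of the 3 Kl/Kl males. In females it was at 0.342, 0.264, 0.215 and 0.194 TPM in controls and 0.626, 0.846 and 0.452 TPM in kept Kl/Kl, without overlap. In ∆UCS males it was at 0.232, 0.225, 0.455 and 0.409 TPM in controls and 0.417, 0.459, 0.548 and 0.258 TPM in Kl/Kl, with overlap. The changes were 0.81 ± 0.34, 1.05 ± 0.34 and 0.29 ± 0.31 in that order, none called, and the average was 0.72 ± 0.19 (adjusted p = 0.0165, limma).

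Promoter letters were looked at for the 8 members that the RefSeq promoter table (GRCm38.p6) holds, since several rose together and PU.1, encoded by Spi1, is the factor that macrophages need. Of 7 motifs searched in 250 bases upstream of the start, on both strands, the purine box GAGGAA that PU.1 binds was in 4 of 8 members (Mrc1, F13a1 at 1 of its 2 starts, Pf4 and Cbr2), against 23.3% of 32851 promoters. GAGGAA was kept for display after the counts of all 7 were seen. For each motif a member counts once if any of its starts matches, while the share counts every promoter. F13a1 and Folr2 have 2 starts each, so the members' counts are favoured against the shares. The longer GAGGAAGT, which contains both GAGGAA and GGAAGT, was in 1 of 8 against 2.44%, and GGAAGT in 5 of 8 against 19.7%. TGCTGA was in 2 of 8 against 16.1%, TGCTGAC, which contains it, in 1 against 3.81%, TGACTCA in 1 against 4.46%, and CACGTG in 0 against 6.02%. A match describes the letters only: Cd163 and Mertk, without GAGGAA there, were called in the average, and Cbr2, with it, was not. The last 200 bases before the start are shown for Mrc1 (chr2:14229214-14229413, plus strand, with 3 matches), F13a1 (chr13:37050245-37050444, minus strand), Pf4 (chr5:90772235-90772434, plus strand) and, for contrast, Mpeg1 (chr19:12460570-12460769, plus strand), which has no match. The other reference gene, Cd68, has 1 match, upstream of the 200 bases shown for the others. They are written 5′ to 3′ on the strand of the gene, with each GAGGAA or its reverse complement TTCCTC in capitals:
Mrc1: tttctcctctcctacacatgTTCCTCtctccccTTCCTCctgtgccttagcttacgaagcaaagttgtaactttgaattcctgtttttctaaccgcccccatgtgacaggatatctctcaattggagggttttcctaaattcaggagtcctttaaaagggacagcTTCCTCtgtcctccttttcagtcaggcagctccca
F13a1: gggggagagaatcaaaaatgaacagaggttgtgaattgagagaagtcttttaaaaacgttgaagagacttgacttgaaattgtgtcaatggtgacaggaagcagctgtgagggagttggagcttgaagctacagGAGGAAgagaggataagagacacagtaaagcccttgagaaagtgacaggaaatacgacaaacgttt
Pf4: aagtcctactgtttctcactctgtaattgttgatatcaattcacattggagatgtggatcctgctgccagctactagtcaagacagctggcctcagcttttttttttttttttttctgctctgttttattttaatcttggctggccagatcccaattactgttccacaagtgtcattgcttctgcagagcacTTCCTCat
Mpeg1: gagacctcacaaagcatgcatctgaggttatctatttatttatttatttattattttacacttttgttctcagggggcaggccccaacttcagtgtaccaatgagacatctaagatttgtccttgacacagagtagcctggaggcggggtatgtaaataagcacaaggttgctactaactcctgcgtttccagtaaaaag

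Csf1r (ENSMUSG00000024621), receptor for CSF1 and IL-34, is on chromosome 18 at 61233670 to 61265221, plus strand. It was at 0.554, 0.937, 0.820 and 0.732 TPM in female controls and 5.20, 4.35 and 1.51 TPM in the kept female Kl/Kl animals. Its change was 1.99 ± 0.50 in females (adjusted p = 0.0404, limma), where all 3 kept Kl/Kl libraries were above every control. In Bmp2+/+ males controls were at 1.55, 0.726, 1.73 and 0.679 TPM and Kl/Kl at 4.93, 1.09 and 3.35 TPM. These overlapped, and the change was 1.14 ± 0.51 (adjusted p = 0.511). In ∆UCS males controls were at 0.828, 0.893, 1.10 and 1.79 TPM and Kl/Kl at 3.20, 2.99, 2.18 and 1.08 TPM. Kl/Kl replicate 4 fell inside the range of the controls.

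Mertk, whose receptor binds GAS6 and protein S on apoptotic cells, was at 0.130, 0.137, 0.154 and 0.0383 TPM in Bmp2+/+ male controls and 0.395, 0.218 and 0.564 TPM in kept Kl/Kl males. In females it was at 0.124, 0.153, 0.186 and 0.178 TPM in controls and 0.377, 0.514 and 0.174 TPM in kept Kl/Kl, where replicate 4 lay among the controls. In ∆UCS males it was at 0.127, 0.105, 0.136 and 0.220 TPM in controls and 0.260, 0.347, 0.336 and 0.136 TPM in Kl/Kl. Of the 2 libraries against their labelled sex, the male one was at 0.0824 TPM, with the controls, and the female one at 0.411 TPM, above every control. Its change in Bmp2+/+ males was 1.18 ± 0.34 (adjusted p = 0.163), 0.74 ± 0.33 in females and 0.56 ± 0.31 in ∆UCS males. The average, 0.83 ± 0.19, passed the test (adjusted p = 0.00691, limma). Because the scale adds 0.1 to the TPM, the changes of low genes such as Mertk and Timd4 are understated.

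Pf4, a chemokine made by megakaryocytes and also by resident macrophages, was at 11.1, 3.66, 9.32 and 7.42 TPM in Bmp2+/+ male controls and 27.7, 12.6 and 20.7 TPM in kept Kl/Kl males. In females it was at 8.05, 5.61, 3.86 and 4.88 TPM in controls and 16.2, 32.7 and 17.0 TPM in kept Kl/Kl animals. In ∆UCS males it was at 5.87, 6.58, 8.97 and 9.44 TPM in controls and 11.97, 11.1, 15.2 and 28.2 TPM in Kl/Kl. Without the 2 libraries against their labelled sex, the groups did not overlap in any of the 3 strata, and Pf4 was the one member of which this held. By stratum it held for 5.06%, 27.0% and 6.17% of all genes, and the share over all 3 was not counted. With all 24 libraries the groups overlapped in both Bmp2+/+ strata, where the 2 were at 6.22 TPM (male) and 8.046 TPM (female). Pf4 was called in the average in 4 of 6 combinations of libraries, scaling and model. Its change passed the test in females, at 1.93 ± 0.39 (adjusted p = 0.0106, limma), and stood at 1.31 ± 0.40 in Bmp2+/+ males and 1.02 ± 0.36 in ∆UCS males. Among 5 tested platelet and megakaryocyte genes, 2 were higher in the average, Ppbp by 0.86 ± 0.27 and Treml1 by 0.63 ± 0.17, and the list's median change was 0.33. With all 24 libraries 0 of the 5 were called, at 0.68 ± 0.27 for Ppbp (adjusted p = 0.110) and 0.52 ± 0.17 for Treml1 (adjusted p = 0.0569, limma). Itga2b, which encodes the platelet integrin chain, was at 0.33 ± 0.23. The part of platelet RNA in the Pf4 result was not tested.

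Lyve1 and Folr2 were also higher in the average, Lyve1 in 4 of 6 combinations (22 or 24 libraries, each with limma on TPM, limma with median-of-ratios scaling and limma-voom) and Folr2 in 1 of them, with log2 changes of 0.56 to 1.03 and 0.26 to 0.61. Lyve1 was at 2.67, 1.97, 3.43 and 1.21 TPM in Bmp2+/+ male controls and 5.59, 3.13 and 7.34 TPM in kept Kl/Kl males, and averaged 1.03 ± 0.25 over the strata (adjusted p = 0.00928, limma). In females it was at 3.12, 2.41, 2.26 and 2.06 TPM in controls and 4.86, 10.2 and 3.42 TPM in kept Kl/Kl, without overlap. In ∆UCS males controls at 1.59, 1.57, 2.24 and 3.43 TPM overlapped Kl/Kl at 2.65, 4.04, 6.84 and 2.59 TPM. Lymphatic endothelium also expresses Lyve1. Of 5 tested lymphatic genes, 2 were higher in the average, Pdpn by 0.97 ± 0.18 and Mmrn1 by 0.68 ± 0.22, while Prox1, the lymphatic master regulator, was at 0.31 ± 0.16 and Flt4 at −0.01 ± 0.26. With all 24 libraries 1 of the 5 was called, Pdpn. The part of lymphatic vessels in the Lyve1 result was not tested. Folr2 was at 0.264 to 0.4997 TPM in female controls and 0.812, 0.706 and 1.13 TPM in kept female Kl/Kl, without overlap. In Bmp2+/+ males controls at 0.648, 0.358, 0.457 and 0.291 TPM overlapped Kl/Kl at 1.49, 0.536 and 0.461 TPM. Folr2 averaged 0.61 ± 0.18 (adjusted p = 0.0251, limma, and 0.0599 to 0.452 in the other 5 combinations), with 1.13 ± 0.31 in females and 0.15 ± 0.29 in ∆UCS males, where controls at 0.342 to 0.686 TPM overlapped Kl/Kl at 0.447 to 0.734 TPM. In ∆UCS males the Folr2 direction turned under median-of-ratios scaling.

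Timd4 and Cbr2 were not called. Timd4 was at 0.192, 0.0692, 0.608 and 0.152 TPM in Bmp2+/+ male controls and 0.234, 0.166 and 0.693 TPM in kept Kl/Kl males, with 1 high library in each group. In females the controls were at 0.0785 to 0.0980 TPM and the kept Kl/Kl libraries at 0.677, 0.0850 and 0.170 TPM. In ∆UCS males the controls were at 0.0565, 0.151, 0.106 and 0.342 TPM and Kl/Kl at 0.665, 0.225, 0.0551 and 0.141 TPM, again with 1 high library in each. The average change was 0.54 ± 0.33 (adjusted p = 0.257, limma).

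Cbr2 was at 353, 157, 562 and 131 TPM in Bmp2+/+ male controls and 484, 103 and 152 TPM in kept Kl/Kl males. In females it was at 271, 128, 77.9 and 185 TPM in controls and 509, 337 and 305 TPM in kept Kl/Kl, without overlap. In ∆UCS males it was at 29.0, 125, 189.9 and 277 TPM in controls and 301, 312, 387 and 228 TPM in Kl/Kl. The groups overlapped in both male strata. Cbr2 averaged 0.71 ± 0.35 (adjusted p = 0.164, limma), with 1.32 ± 0.62 in females, 1.36 ± 0.57 in ∆UCS males and −0.57 ± 0.63 in Bmp2+/+ males. None of the 3 was called.

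**Figure D2:**
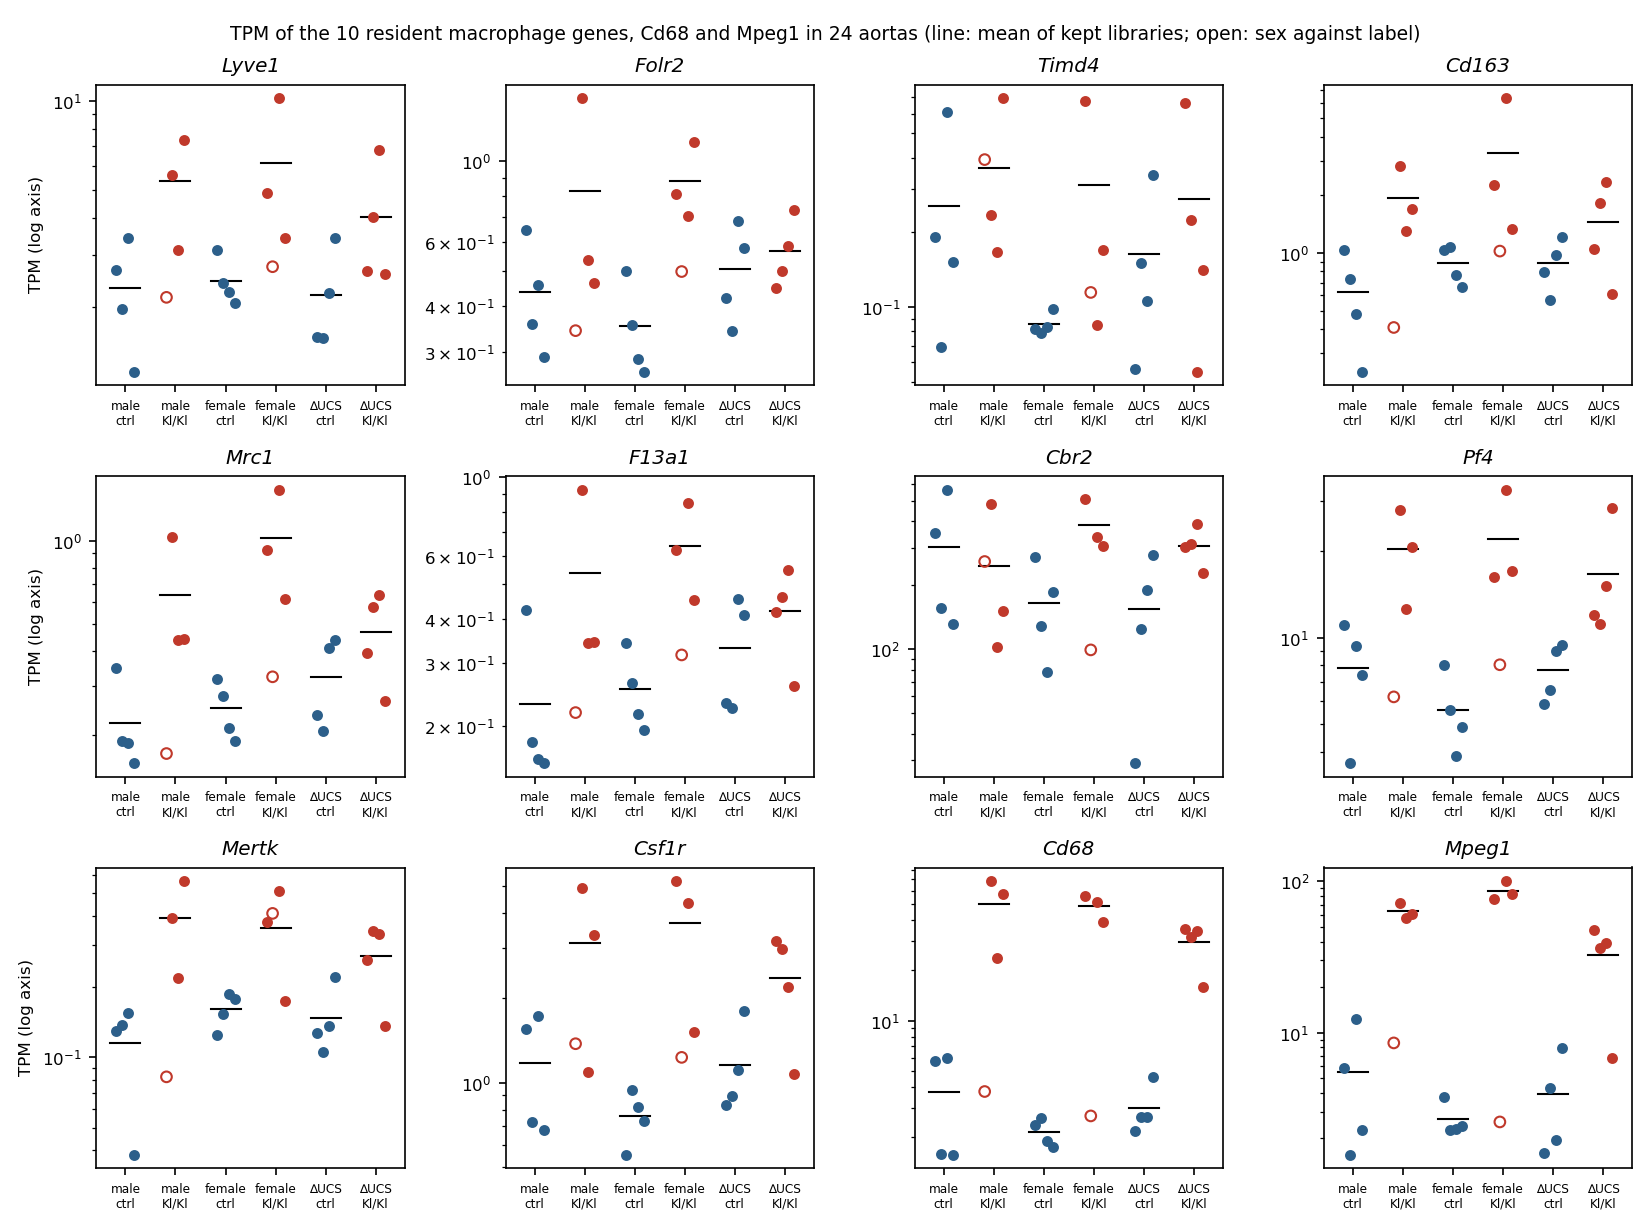
TPM (vertical log axis) of the 10 members, Cd68 and Mpeg1 in each of 24 aortas, by group, with the mean of the kept libraries as a line. Open circles mark the 2 libraries against their labelled sex. Cd68 and Mpeg1 in these 2 lie with the controls, at 3.76 and 2.69 TPM and 8.55 and 2.57 TPM.

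By stratum, limma called 0 of 10 members in Bmp2+/+ males (0.668% of all genes were called higher), 3 in females (2.42%) and 0 in ∆UCS males (0.466%). The 3 were Mrc1, Pf4 and Csf1r. At an unadjusted p under 0.05 there were 7, 9 and 2 members (9.05%, 21.2% and 14.1% of all genes). Limma-voom on estimated reads called 2 (1.39%), 2 (2.08%) and 0 (0.717%), and limma with median-of-ratios scaling 1 (1.09%), 2 (2.07%) and 0 (0.584%). Without 1 female Kl/Kl library, replicate 3, limma called 0 members in females (0.997% of all genes called higher), and without Bmp2+/+ male Kl/Kl replicate 3 it called 3 in Bmp2+/+ males (1.93%). Every kept Kl/Kl library lay above every control for 4 members in Bmp2+/+ males (5.06% of all genes), 8 in females (27.0%) and 1 in ∆UCS males (6.17%). The 4 were Cd163, Mrc1, Pf4 and Mertk, and the 1 was Pf4. In a bulk sample more macrophages and more RNA per macrophage cannot be told apart.

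With all 24 libraries as labelled, 0 members were called in each stratum by limma, as were 0 of all genes (0.0%), and the groups were apart for 2 members in females (10.5%), 1 in ∆UCS males (6.16%) and 0 in Bmp2+/+ males (1.13%). The average still called 6 members (7.81% of all genes called higher), Csf1r, F13a1, Lyve1, Mertk, Mrc1 and Pf4. Cd68 and Mpeg1 were themselves not called by stratum then, with an adjusted p of 0.602 for each of the pair in males with Bmp2+/+, 0.159 in females and 0.208 in the ∆UCS stratum (limma). In the 2 libraries Spp1, osteopontin, stood at 0.459 and 0.347 TPM, within the range of the controls. Csf1r and Mrc1 were called in the average under all 6 of the main combinations of libraries, scaling and model, at log2 changes of 0.89 to 1.35 and 0.59 to 1.04. Those 6 called 8 members (22 libraries), 7 when scaled by the median of ratios (6.49% of all genes called higher), 7 by limma-voom (6.78%), 6 with all 24 libraries, and, with all 24, 2 when scaled by the median of ratios (2.82%) and 3 by limma-voom (3.37%). Without Bmp2+/+ male Kl/Kl replicate 4, the average called 3 members, Pf4, Mrc1 and Csf1r (4.11% of all genes called higher).

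The Bmp2+/+ male stratum is split over 2 sets of libraries, told apart by the spelling of their names. All ∆UCS libraries are in set 1 and all female libraries in set 2, so sex and Bmp2 genotype cannot be told apart from the set outside this stratum. Of the kept Bmp2+/+ males, set 1 holds 2 controls and 2 Kl/Kl, and set 2 holds 2 controls and 1 Kl/Kl library, replicate 4. The fit in set 2 therefore assumes that this library varies like the other groups of the set. In set 1 alone 0 members were called (0.0507% of genes called higher) and 0 had an unadjusted p under 0.05 (2.76% of genes), and in set 2 alone 0 were called (0.739%) and 5 had one (20.4%, limma). Mrc1 was at 1.12 in set 1 and 0.99 in set 2, Cd163 at 1.32 and 1.75, and Lyve1 at 0.45 and 2.17, where each set 2 value rests on that 1 Kl/Kl library. The median change of all genes was not 0 but 0.10, 0.40 and 0.34 in the strata. Scaled by the median of ratios, which brings it to −0.04, 0.02 and 0.06, the members' median was 0.95, 0.77 and 0.27 against 1.10, 1.24 and 0.55 before, and the average called 7 members among 1378 genes higher and 1373 lower, where 3191 and 417 had been called before. Folr2 was the one lost, at 0.33 (adjusted p = 0.263, limma).

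Relative to Cd68 and Mpeg1 every member was lower in Kl/Kl aorta. The quantity here is log2(TPM + 0.1) of the member minus the mean of the same for Cd68 and Mpeg1. For Mrc1 it was −3.53 ± 1.05 (SD, n = 4) in Bmp2+/+ male controls and −6.28 ± 0.43 (SD, n = 3) in Kl/Kl, −2.84 ± 0.06 and −5.92 ± 0.43 in females, and −2.95 ± 0.66 and −5.63 ± 0.62 in ∆UCS males. The averaged difference ran from −2.42 ± 0.32 for Pf4 to −3.30 ± 0.30 for Timd4, and all 10 passed in every stratum and in the average (limma), also with all 24 libraries. Because the pair rose more than nearly any gene, 99.9% of 21246 genes were called lower on this scale in the average, and 99.4%, 99.6% and 98.0% in the strata. With all 24 libraries these shares were 99.7%, 98.2%, 98.8% and 95.3%. The shift of the members by −2.91 (median) was smaller than that of all genes by −3.56.

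**Figure D3:**
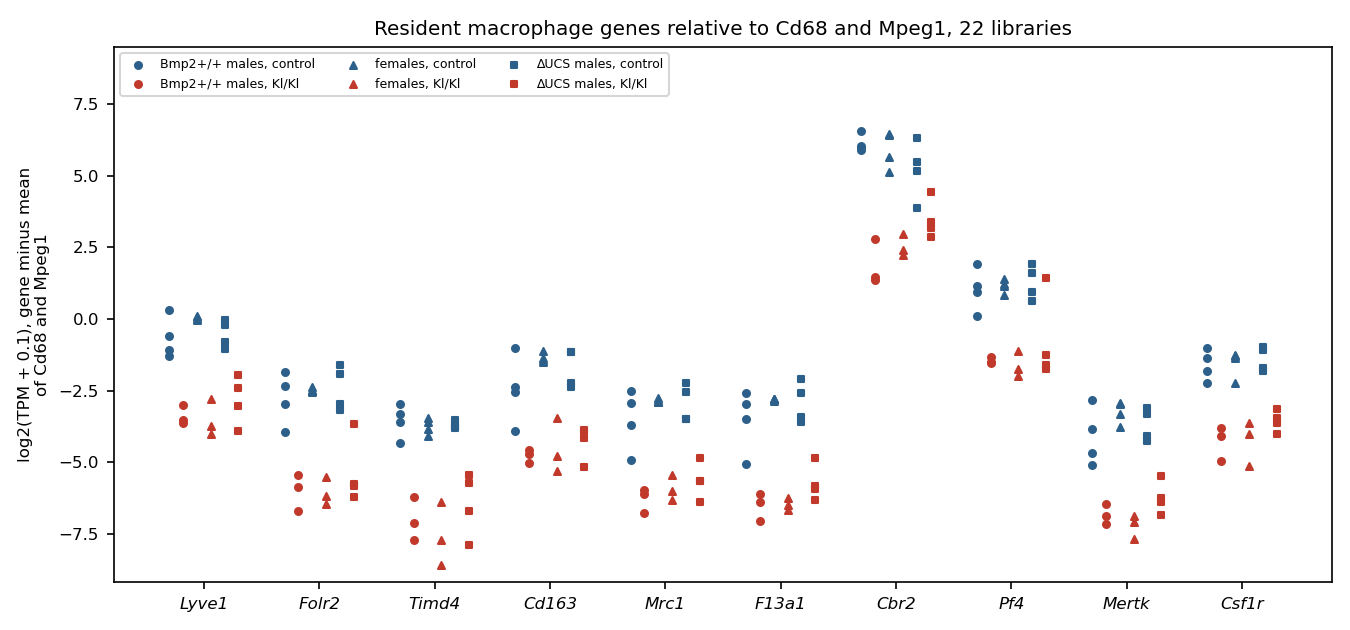
Log2(TPM + 0.1) of each member minus the mean of Cd68 and Mpeg1 (vertical axis), per library, with controls in blue and Kl/Kl in red. Kl/Kl libraries lie lower for every member on average. For Pf4 1 ∆UCS Kl/Kl library, at 1.43, lies among its controls, which span 0.64 to 1.93. For Cbr2 the same library, replicate 4, at 4.45, also lies among its controls, which span 3.89 to 6.32.

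No difference between strata was called for a member. The Klotho effect in ∆UCS males minus that in Bmp2+/+ males was below 0 for 9 of 10 members, with a median of −0.37 against 0.21 for all genes. It was −0.95 ± 0.68 for Cd163, −0.65 ± 0.47 for Mrc1 and 1.93 ± 0.85 for Cbr2, the one above 0. Limma called 0 members and 0 genes (0.0%), and 1 member had an unadjusted p under 0.05 (2.96% of genes), against 5 with limma-voom (8.55%). The effect in females minus that in males was above 0 for 9 of 10, with a median of 0.50 against 0.28, and 0 members and 0 genes (0.0%) were called. Here too 1 member had an unadjusted p under 0.05 (2.77% of genes). With all 24 libraries the medians were −0.21 and 0.35, 0 members and 0 genes (0.0%) were called in either difference, and 0 members had an unadjusted p under 0.05 (2.48% and 1.39% of genes). The 2 differences share the Bmp2+/+ males. As ratios of mean TPM over 22 libraries, Cd68 rose 13.4-fold in Bmp2+/+ males, 9.74-fold in ∆UCS males and 22.6-fold in females. Mpeg1 rose 11.6-fold, 8.25-fold and 32.1-fold in that order. By this measure the pair also rose less in ∆UCS males and more in females than in Bmp2+/+ males. Shares of all genes below or above 0 are not given here. Several members vary together, so the counts of 9 are not 9 separate results.

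Other lists give the setting, beside the 15.0% of all genes called higher in the average (7.81% with all 24 libraries). Of 13 tested macrophage genes outside the members, 12 were higher in the average, with a median of 1.63. Lyz2 (lysozyme) rose by 2.88 ± 0.26, Cd14, the endotoxin co-receptor, by 2.83 ± 0.21, Cybb, of the phagocyte oxidase, by 2.80 ± 0.25 and the signalling adaptor Tyrobp by 2.72 ± 0.23. Of 15 other resident macrophage genes 4 were higher: Clec10a (1.37 ± 0.32), Fcna (1.02 ± 0.28), Vsig4 (0.79 ± 0.17) and Selenop (0.72 ± 0.13). That list's median was 0.43, and among those not called the sialic acid receptor Siglec1 was at 0.80 ± 0.44 and Stab1 at 0.22 ± 0.32. Under median-of-ratios scaling its median was 0.11, with 4 called.

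Around CSF1R, 2 of 8 genes were higher in the average: Spi1, which encodes PU.1, by 1.31 ± 0.30 and Id3, a helix-loop-helix inhibitor, by 0.75 ± 0.20. The ligand gene Csf1 was at 0.72 ± 0.28 (adjusted p = 0.082, limma), Il34 at 0.14 ± 0.15 and Irf8 at 1.11 ± 0.55. Of 7 tested genes of apoptotic cell uptake around MERTK, 1 was higher, which is near the 15.0% of all genes. It was Pros1 (protein S), by 0.81 ± 0.15, while Gas6 was at 0.65 ± 0.31, Mfge8 at 0.87 ± 0.34 and Axl at 0.54 ± 0.25. Of 7 monocyte genes 4 were higher, Chil3 by 1.74 ± 0.37, Plac8 by 1.56 ± 0.28, Ccr2 by 1.10 ± 0.20 and Vcan by 0.88 ± 0.23. With all 24 libraries the counts called higher were 11 of the 13 other macrophage genes, 4 of the 15 other resident genes, 2 of 8 around CSF1R, 1 of 7 around MERTK and 3 of 7 monocyte genes, where Vcan was lost (adjusted p = 0.0536, limma).

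**Figure D4:**
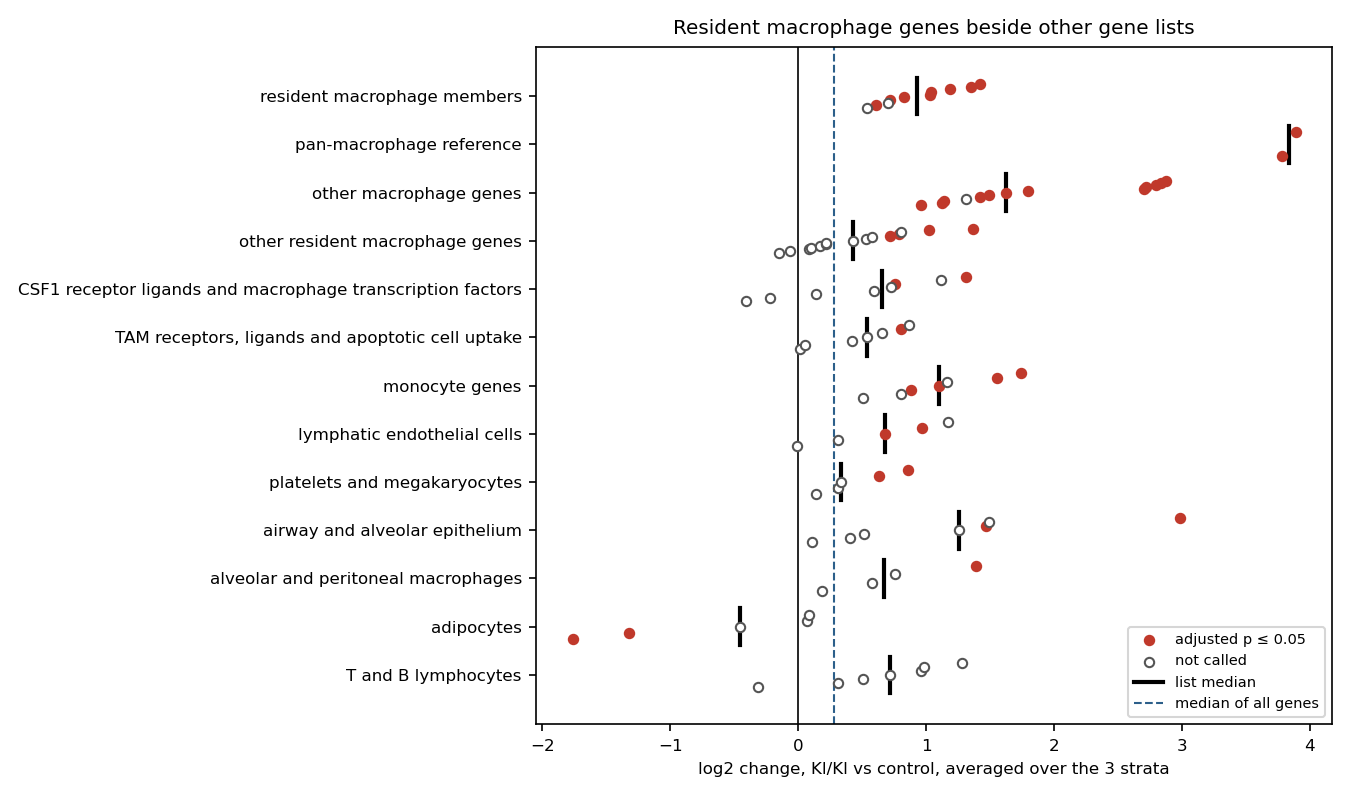
Log2 change averaged over the 3 strata (horizontal axis) for every tested gene of 13 lists (vertical axis). Filled points passed an adjusted p of 0.05, black bars are list medians and the dashed line is the median of all genes, at 0.28. The members' median, 0.93, lies between those of other resident macrophage genes, 0.43, and other macrophage genes, 1.63.

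Members did not all vary together from animal to animal. With the group means removed, 145 relations were computed over 22 libraries, with 100000 permutations within groups, and 62 had an adjusted p of at most 0.05. Mrc1 and F13a1 were closest (r = 0.956, rho = 0.959, permutation p = 1e-05 for both, the smallest the permutations can give, adjusted p 0.000242 and 0.00029). Without the 2 libraries farthest from the median r was 0.956, and it was 0.958 in set 1 and 0.969 in set 2. Cd163 and Mrc1 followed (r = 0.904, rho = 0.898, permutation p = 1e-05 for both, adjusted p 0.000242 and 0.00029), and Cd163 and F13a1 also ran together (r = 0.808, rho = 0.816, permutation p 1e-05 and 2e-05, adjusted p 0.000242 and 0.000483). Lyve1 and Mertk had r = 0.819 (rho = 0.794, adjusted p 0.00677 and 0.00792, permutation). Timd4 had r = −0.13 (rho = −0.08) to Mrc1, −0.10 (rho = −0.04) to F13a1 and −0.21 (rho = −0.23) to Cd163, and permutation p adjusted to 0.729, 0.786 and 0.581 for r. Folr2 and Csf1r had r = 0.18 (adjusted p = 0.729, permutation), and Pf4 and Mertk r = 0.06 (adjusted p = 0.854, permutation). All these points share libraries, depth and the TPM total.

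The mean of 15 other resident macrophage genes passed (adjusted p at most 0.05 for r, permutation) with Csf1r, Mrc1, F13a1, Cbr2, Lyve1 and Cd163. Their r was 0.880, 0.758, 0.747, 0.730, 0.625 and 0.607, in that order, with Cbr2 at 0.0753 in set 2. Folr2, Timd4, Pf4 and Mertk did not pass, though Mertk did by rho. The mean of 7 monocyte genes passed with Csf1r (r = 0.794), Timd4 (r = 0.722) and Cbr2 (r = 0.641) alone. Some members also followed markers of other cells. Timd4 ran with the mean of 7 T and B lymphocyte genes (r = 0.924, rho = 0.896, permutation p = 1e-05 for both, adjusted p 0.000242 and 0.00029), at 0.923 in set 1 and 0.931 in set 2, and at 0.890 without the 2 farthest libraries. Summed TPM of a list, given here for lymphocyte and airway genes, weighs its short and abundant genes most and does not weigh its genes equally. The summed TPM of the 8 listed lymphocyte genes was 0.763 to 48.8 in Bmp2+/+ male controls and 3.31 to 18.5 in kept Kl/Kl males. Female libraries had 0.507 to 4.55 in controls and 1.44 to 44.5 in kept Kl/Kl, and in ∆UCS males 0.692 to 16.6 in controls and 1.09 to 109.95 in Kl/Kl. The groups overlapped in all 3 strata, and the list's median change was −1.27, 1.44 and 1.44 in that order. Cbr2, which club cells of the airway express strongly, ran with 7 airway and alveolar genes (r = 0.910, rho = 0.888, permutation p = 1e-05 for both, adjusted p 0.000242 and 0.00029), at 0.952 in set 1, 0.757 in set 2 and 0.857 without the 2 farthest. The summed TPM of these genes overlapped in Bmp2+/+ males, at 446 to 1861 in controls and 529 to 2507 in kept Kl/Kl, with a median change of −0.63. It ran from 6.40 to 919 in ∆UCS controls and from 930.2 to 2461 in ∆UCS Kl/Kl, and from 275 to 1365 in female controls and 2403 to 3316 in kept female Kl/Kl, with medians of 1.74 and 1.95. All 7 were tested, with a median change of 1.26 in the average and 2 higher, Scgb3a1 (2.98 ± 0.49) and Sftpc (1.47 ± 0.46), the second of them not with all 24 libraries. Sftpc had no read in 4 libraries. The airway list also passed (adjusted p at most 0.05 for r, permutation) with Mrc1, F13a1, Lyve1, Pf4 and Cd163, at r = 0.443 to 0.631. By rho Cd163 did not pass with it (adjusted p = 0.0689, permutation). The airway list did not pass with Folr2, Timd4, Mertk and Csf1r. By r the mean of 5 adipocyte genes passed with Cd163 (r = 0.685) and Mrc1 (r = 0.665) alone. By rho it also passed with F13a1 (rho = 0.634, adjusted p = 0.0285, permutation). None of the listed genes was at 0 in all 24 libraries, and what lymphocytes, airway, lung or fat tissue contributed to the members was not tested.

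**Figure D5:**
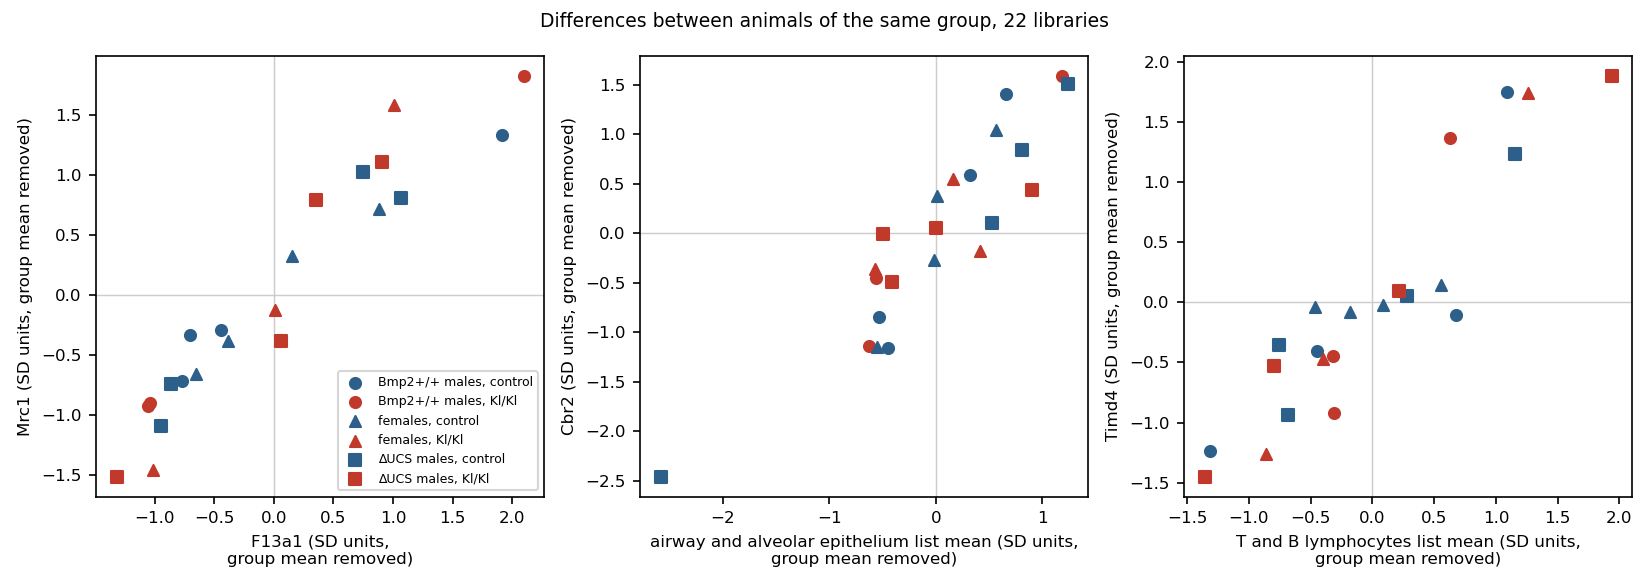
Each point is 1 of 22 libraries, in SD units with its group mean removed, for F13a1 against Mrc1 (left), the airway and alveolar list against Cbr2 (middle) and the lymphocyte list against Timd4 (right). Pearson's r is 0.956, 0.910 and 0.924. The middle panel has 1 library, of ∆UCS controls, far below the others.

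For Csf1r the closest list was its ligands and macrophage transcription factors (r = 0.939, rho = 0.929, permutation p 2e-05 and 3e-05, adjusted p 0.000362 and 0.000621), and for Mertk a list of 4 alveolar and peritoneal macrophage genes (r = 0.912, rho = 0.904, permutation p 2e-05 and 6e-05, adjusted p 0.000362 and 0.00109). Those 4 were Marco, Car4, Gata6 and Prg4, with medians of 78.5, 885, 594 and 470 estimated reads over 24 libraries. Which cells expressed them here was not tested, so the list's name does not give their source. Of those 4, Prg4 was higher in the average, by 1.39 ± 0.39. Siglecf, the eosinophil and alveolar macrophage lectin, is also on that list but was too low to test, at 0 reads in 9 libraries. Lyve1 and the mean of 5 lymphatic genes had r = 0.705 (rho = 0.730, adjusted p 0.0168 and 0.0134, permutation). That mean had r = 0.846 to Csf1r, 0.765 to Cbr2, 0.748 to Mertk, 0.711 to Mrc1, 0.688 to F13a1 and 0.642 to Cd163. Lyve1 had r = 0.874 to the alveolar and peritoneal list. Which cells the Lyve1 RNA came from was not tested. Pf4 and 5 platelet genes had r = 0.33 (rho = 0.27, adjusted p 0.278 and 0.369, permutation). That list is shallow: Ppbp, Treml1 and Itga2b had medians of 13, 23 and 91 estimated reads over 24 libraries. The same list passed (adjusted p at most 0.05 for r, permutation) with Csf1r (0.851), Mertk (0.699), Mrc1 (0.659), F13a1 (0.622) and Cbr2 (0.577). Its name therefore does not give the source of its RNA, which was not tested. Of 5 adipocyte genes 2 were lower in the average, Ucp1 by −1.76 ± 0.40 and Plin1 by −1.32 ± 0.40 (Ucp1 alone with all 24 libraries), and of 7 T and B lymphocyte genes 0 were called in the average, with a median of 0.71.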

How the data were processed

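PolyA RNA of 24 whole aortas was sequenced from directional libraries, per the labels' protocols. The authors deposited 1 table of TPM values for 32561 genes, on mm39 with Partek among the tools, per the submitters' processing notes. The sources used here give no aligner, annotation or counting settings. Every column sums to 482073, and the values scale with genomic span, so reads were estimated from the smallest steps of each column: 73.1% of 255813 values between 0.5 and 20 reads came out whole within 0.05.

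Samples were grouped by the labels. Genes at TPM of at least 0.1 in at least 4 libraries were tested (21248) with limma 3.58.1 in R 4.3.3 (trended empirical Bayes) on log2(TPM + 0.1), over 6 groups with library set as a term and without the 2 libraries against their labelled sex. Adjusted p is Benjamini-Hochberg over all genes tested, at 0.05. Relative values subtract the mean of Cd68 and Mpeg1. Alternatives were all 24 libraries, other pseudocounts and filters, median-of-ratios scaling, limma-voom on estimated reads (22163 genes that reached 10 reads in 4 libraries), the replicate block and leaving out each library. The fit on voom with all 24 libraries and the fits within a library set were added after seeing the data. The fit was tested on simulated data. Members and lists were chosen with earlier results of these data known. Named beside the members are the pan-macrophage pair, up to 4 tested genes per list with the largest average change (and others added to show a list's known markers after their values were seen), and the 5 genes most correlated with the members. Same-numbered animals are not stated to be related, and the correlation of their deviations from the group mean ran from −0.42 to 0.30, so the numbers were not used as pairs.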

Additional observations from a re-analysis of the deposited data

Results flagged for a closer look

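Of 72 groups of 4 libraries examined, 5 held a library far from the other 3, where chance gives about 1 in 20. The groups were taken on TPM with all 24 libraries, including those against their labelled sex. The 72 groups are not independent, since some members vary together. Folr2 was at 1.49 TPM in Bmp2+/+ male Kl/Kl replicate 2, where the next was 0.536. The lowest of that group, 0.342 TPM, was replicate 1, a library against its labelled sex. Timd4 was at 0.677 TPM in female Kl/Kl replicate 1, where the next was 0.170. Mrc1 and F13a1 were at 0.348 and 0.424 TPM in Bmp2+/+ male control replicate 1, the one Klotho+/+ animal, against next values of 0.190 and 0.180. Mpeg1 was at 3.77 TPM in female control replicate 1, where the next was 2.40.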

How the results depend on the processing

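Of 245 alternative counts of called members, 227 were within 1.5 times the first and 18 moved. This tally includes the counts relative to Cd68 and Mpeg1, where nearly all genes were called lower. It also includes the differences between strata, where 0 genes were called in the main fit. Counts of these kinds had little room to move, so the tally overstates how stable the others were. In Bmp2+/+ males (0 called) median-of-ratios scaling gave 1, limma-voom 2, and leaving out 1 library 0 to 3. In females (3 called) all 24 libraries gave 0, also with median-of-ratios scaling or limma-voom, and leaving out 1 library gave 0 to 3. In the average (8 called) all 24 libraries with median-of-ratios scaling gave 2, with limma-voom 3, a filter of TPM at least 1, which tests 5 members, gave 4, and leaving out 1 library 3 to 9. Relative to Cd68 and Mpeg1 (10 called in each stratum and in the average), that filter gave 5 in each, all that it tests, and leaving out 1 library gave 10 to 10. Both differences between strata stayed at 0 to 0 members with any library left out. The shares of all genes called are not given here for that filter or for the fit that called 9 members.

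Of 584 alternatives for single members by stratum, 545 kept direction and side of the threshold, 23 lost it, 7 gained it and 9 turned. Timd4 turned in Bmp2+/+ males without Kl/Kl replicate 4, which is also set 1 alone (−0.607, with 1 library left out −0.607 to 0.988), and in ∆UCS males without Kl/Kl replicate 1 (−0.0902 to 0.677). Cbr2 turned in Bmp2+/+ males without Kl/Kl replicate 3 (−1.02 to 0.101 with 1 library left out) and, with 1 Kl/Kl library against 2 controls, in set 2 alone (0.0824). For ∆UCS males, Folr2 turned when scaled by median of ratios (−0.12, also with all 24) and limma-voom (−0.24, also with all 24). The cause was not tested.

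With the replicate block, members called were 0, 2, 0 and 8 in Bmp2+/+ males, females, ∆UCS males and the average. The shares of all genes called with the block are not given here, so these counts cannot be set against them. Csf1r in females was lost (adjusted p = 0.062, limma). The block kept the 10 relative calls in each. Same-numbered libraries had correlations from −0.42 to 0.30.

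Depth limits Timd4 most, at 64 estimated reads in its lowest library, then Pf4 at 84 and Folr2 at 113.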

Other observations

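The 5 genes whose values followed the mean of the 10 members most closely across 22 libraries, with group means removed, were Serping1 (r = 0.932), Cfap298 (0.931), Slco3a1 (0.928), Scnn1b (0.926) and Gpsm1 (0.922). Serping1 encodes the inhibitor of complement C1. They were picked from all tested genes by this same measure, so the values are a description and carry no test.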
